A study of Homo sapiens with 6 samples.

Results

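Translation initiation and elongation factors are the proteins that place the ribosome on an mRNA, choose the start codon and carry the ribosome along the coding sequence. Their RNA was followed here in MDA-MB-231, a long-established human cell line of triple-negative breast cancer. The group was defined by name as 42 genes, which encode eIF1 to eIF6 subunits, the elongation factors, a release factor and the poly(A)-binding protein, out of 61552 gene identifiers in each table. The genes of eIF4E, eIF4G and the 4E-binding proteins are outside the group. Cells received 10 μM VNLG-152R, a compound described by the study as a degrader of the MNK1/2 kinases, or the DMSO vehicle, and polyadenylated RNA was collected after 24 h from 3 samples per group. All samples come from the same unmodified line, and the sources call them triplicates without saying whether they were separate experiments, so the p-values reflect how far these samples varied, and that variation may be technical. The MNK kinases act on the cap-binding factor eIF4E, and the comparison asks whether RNA of the remaining translation machinery differed after exposure.

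Initiation starts when eIF2 brings the initiator tRNA to the small ribosomal subunit together with eIF1, eIF1A, eIF3 and eIF5. The helicase eIF4A with its cofactors unwinds the leader of the mRNA, and eIF5B joins the large subunit once the start codon has been found. In elongation, eEF1A delivers aminoacyl-tRNA, the eEF1B subunits recharge it with GTP, and eEF2 moves the ribosome by one codon. Many mRNAs of this machinery belong to the TOP class, which begins with a C followed by a run of pyrimidines. Translation of TOP mRNAs, more than their amount, is known to respond to mTORC1.

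The annotated transcript starts show which of the genes carry this feature. Starts from RefSeq on GRCh38.p14 were at hand for 34 of the 42 genes. A C at the first transcribed base followed by an unbroken run to at least 5 pyrimidines was present in 10 of them (29.4%), against 5.14% of 27305 genes in the same table. The windows below run from 10 bases before the annotated start to 20 bases from it, 5′ to 3′ on the strand of the gene, and the capitals mark the pyrimidine run. They are shown because the levels of these 10 genes are set against the other genes further on.
EEF1A1, chr6:73521013-73521042, minus strand: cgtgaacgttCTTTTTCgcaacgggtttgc
EEF1B2, chr2:206159885-206159914, plus strand: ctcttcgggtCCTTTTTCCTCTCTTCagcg
EEF2, chr19:3985444-3985473, minus strand: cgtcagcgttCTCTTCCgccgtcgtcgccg
EIF4B, chr12:53006446-53006475, plus strand: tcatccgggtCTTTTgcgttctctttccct
EIF4A2, chr3:186783567-186783596, plus strand: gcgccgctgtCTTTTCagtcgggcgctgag
EIF2S3, chrX:24054946-24054975, plus strand: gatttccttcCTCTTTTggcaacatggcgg
EIF3D, chr22:36529147-36529176, minus strand: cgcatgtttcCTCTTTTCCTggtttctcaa
EIF3F, chr11:7987327-7987356, plus strand: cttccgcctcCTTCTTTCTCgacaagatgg
EIF3K, chr19:38619178-38619207, plus strand: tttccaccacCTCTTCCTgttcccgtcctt
EIF3M, chr11:32583821-32583850, plus strand: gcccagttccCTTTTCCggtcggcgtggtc
EIF1AX, EIF2B2 and EIF3B, which had the 3 smallest p-values of the group, have no such run at the annotated start:
EIF1AX, chrX:20141819-20141848, minus strand: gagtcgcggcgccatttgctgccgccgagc
EIF2B2, chr14:75002911-75002940, plus strand: cgcccgccccggaagtgcaaactgtgtggt
EIF3B, chr7:2354817-2354846, plus strand: tcgcacgcacatggctgggctgtagccgtc

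Counts assigned to genes ranged from 60122936 to 68583224 in vehicle controls and from 69923839 to 82151816 with VNLG-152R. Levels are given as CPM, counts scaled to a common library size after TMM normalization. The 6 markers of the line (VIM, CD44, AXL, CAV1, MSN and LGALS1) were present in each library, and their summed level was 9162 to 9802 CPM in controls and 7022 to 8825 CPM with VNLG-152R. Of these, 2 fell by edgeR: CAV1 (log2 fold change -0.60, adjusted p = 0.0048, still called whichever library was removed) and VIM (-0.39, adjusted p = 0.0472, called only when VNLG-152R replicate 1 was removed). LGALS1 was at -0.27 with groups apart (adjusted p = 0.0747), CD44 and AXL were at -0.10 and -0.15, and MSN was at 0.02. The estrogen receptor ESR1 stayed at or under 0.0967 CPM and the leukocyte gene PTPRC at or under 0.0329 CPM. Read pairs that HTSeq, the counting tool, assigned to no feature made up 2.63% to 3.17% of vehicle libraries and 3.36% to 5.05% of VNLG-152R libraries. This no-feature class can include pairs in introns of annotated genes as well as pairs outside genes.

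RNA of the translation factors lay slightly lower with VNLG-152R across most of the group, and no single gene passed the test. Of 42 genes, 40 had enough counts to be tested. By the quasi-likelihood test of edgeR, none rose and none fell at an adjusted p under 0.05, where 5.19% of the 17084 genes tested were called, 3.76% higher and 1.43% lower. The log2 fold change (VNLG-152R over vehicle) was below 0 in 34 of the 40 genes, and their median was -0.14, beside -0.0024 over all genes tested. In 14 genes (35.0%) each treated library lay below each control library, against 13.4% of all genes tested, and in 1 gene (2.5%) above, against 15.1%. The shares over all genes tested were not matched to the level of the translation factors. At an unadjusted p under 0.05 there were 12 genes, all lower, while 9.76% of all genes tested were lower at that threshold. Both genes that were not tested, EIF3K and EEF1G, had almost no counts in either group. The share of read pairs in the no-feature class was also higher in each treated library, and the summed level of the 6 markers of the line was lower. The part of either in the shift of the group was not tested. CPM is scaled to library size and does not measure cell number or total RNA. In RNA from bulk cultures, a lower level in each cell and a smaller share of cells with the RNA cannot be told apart.

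The number called depended on the test. DESeq2 called 4 genes lower and none higher, namely EIF1AX, EIF2B2, EIF2B3 and EIF3B, and these also made up the 4 genes lower at an adjusted p under 0.1 in edgeR. Limma-voom called 0. Without the expression filter, edgeR called EIF1AX and EEF1B2 lower (adjusted p = 0.013 and 0.00635). The fold change of EEF1B2 in the main fit rested on control replicate 1, as given below with its pseudogene counts. Most genes stayed below 0 under the other scalings, with 35 genes below 0 after RLE size factors and 34 with library size alone. After the removal of single libraries 32 to 35 of the genes were below 0, the median lay between -0.16 and -0.12 and edgeR called 0 genes each time.

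Most intervals were narrow enough to bound the difference between these samples. They rest on the spread of the triplicates, which may be technical. The 95% interval of the log2 fold change lay within a 1.5-fold change in either direction, a log2 value of 0.585, for 35 of the 40 genes. The exceptions were EIF1AX, whose interval reached -0.59, and EIF4A1, EEF1B2, EEF1E1 and EEF2K, which had few counts.

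**Figure D1:**
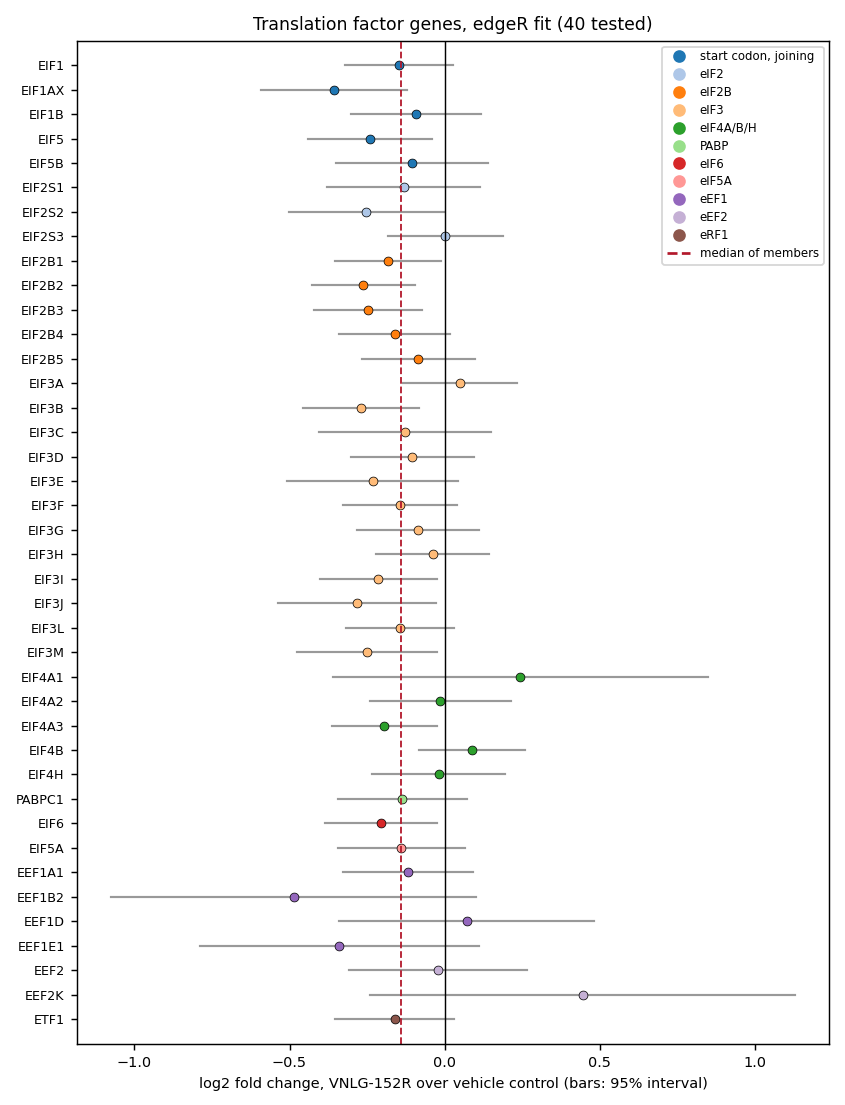
Log2 fold change of each of the 40 tested genes on the x axis (VNLG-152R over vehicle control, points, with 95% intervals as bars), ordered by factor on the y axis and colored by factor. The dashed line is the median of the group at -0.14; 34 points lie left of 0, and the wide bars belong to EIF4A1, EEF1B2, EEF1D, EEF1E1 and EEF2K.

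Among the factors of start codon selection and subunit joining, all 5 genes had log2 fold changes below 0, from -0.36 to -0.09, and 3 of them had treated libraries entirely below the controls (13.4% of all genes tested did). EIF1AX, which encodes eIF1A, a factor that helps the small subunit scan to the start codon, lies on chromosome X from 20124518 to 20141844. Its levels were 80.5, 66.3 and 65.6 CPM in vehicle controls 1 to 3 and 48.1, 57.6 and 60.01 CPM with VNLG-152R. The groups did not overlap, and control replicate 1 stood above the other controls. The log2 fold change was -0.36 (SE, the standard error, 0.11; edgeR adjusted p = 0.0794), with extremes of -0.42 and -0.26 after the removal of single libraries. EIF1, the gene of eIF1, which guards against initiation at the wrong codon, had 621, 596 and 604 CPM in controls and 544, 539 and 562 CPM with VNLG-152R. Here too the groups were apart, by a smaller step (log2 fold change -0.15, SE 0.08, edgeR adjusted p = 0.299). EIF5, which makes eIF2 hydrolyze its GTP, had a log2 fold change of -0.24, EIF5B of -0.11 and EIF1B, a close relative of EIF1, of -0.09.

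None of the 3 subunits of eIF2 passed the test, and their intervals overlapped. EIF2S2, the β subunit, had 427, 319 and 324 CPM in controls and 276, 304 and 319 CPM with VNLG-152R. Control replicate 1 was far above the other 2 controls, and control replicate 2 and VNLG-152R replicate 3 were almost level. The log2 fold change was -0.25 (SE 0.11, edgeR adjusted p = 0.216), and it was -0.10 at its nearest to 0 when 1 library was left out. The α subunit EIF2S1, which stress kinases phosphorylate, had a log2 fold change of -0.13, and the γ subunit EIF2S3, which binds GTP and the initiator tRNA, of 0.0018.

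The genes of eIF2B, the exchange factor that returns GTP to eIF2, were below 0 in 5 of 5 cases, and 4 of them had treated libraries entirely below the controls, against 13.4% of all genes tested. EIF2B2, the gene of its β subunit on chromosome 14 from 75002911 to 75012366, had 83.5, 86.3 and 88.7 CPM in controls. With VNLG-152R it had 72.5, 71.5 and 71.6 CPM. The treated libraries were close to each other and well under the lowest control. The log2 fold change was -0.26 (SE 0.08, edgeR adjusted p = 0.0696), between -0.28 and -0.24 when each library was left out. Antisense genes lie over 23.6% of its exons, and each of them held at most 17 counts in any library. EIF2B5, the catalytic subunit, had 117, 128 and 131 CPM in controls and 126, 112 and 117 CPM with VNLG-152R, so its groups overlapped (log2 fold change -0.09, edgeR adjusted p = 0.582). The log2 fold changes of EIF2B3, EIF2B1 and EIF2B4 were -0.25, -0.18 and -0.16.

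Subunits of eIF3, the largest initiation factor and the scaffold between mRNA and small subunit, were mostly below 0. Of 13 genes 12 were tested, 11 were below 0 and in 4 (33.3%) each treated library lay below each control, against 13.4% of all genes tested, with a median of -0.14. EIF3B, a core subunit on chromosome 7 from 2354086 to 2380745, had 380, 344 and 344 CPM in controls and 311, 276 and 300 CPM with VNLG-152R. Each treated library lay below each control (log2 fold change -0.27, SE 0.09, edgeR adjusted p = 0.0926). EIF3A, the other large core subunit, had 685, 712 and 671 CPM in controls and 760, 696 and 685 CPM with VNLG-152R. The groups overlapped, and the log2 fold change was 0.05 (SE 0.08, edgeR adjusted p = 0.763), the single value above 0 among the eIF3 genes. Its interval, from -0.13 to 0.23, and that of EIF3B, from -0.46 to -0.08, share the range between -0.13 and -0.08, and the difference between the genes was not tested. EIF3J, a loosely bound subunit, had a log2 fold change of -0.28, EIF3M of -0.25, EIF3E of -0.23 and EIF3I of -0.21. The values of EIF3F, EIF3L, EIF3C, EIF3D, EIF3G and EIF3H ranged from -0.14 to -0.04. AL022311.1, a gene of the same orientation with 32 to 53 counts per library, overlaps 41.1% of the exons of EIF3L.

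The eIF4A genes and their cofactors had log2 fold changes on both sides of 0. EIF4A2, a close relative of EIF4A1, had 560, 515 and 544 CPM in controls and 451, 595 and 557 CPM with VNLG-152R. The treated libraries lay both below and above every control, and the log2 fold change of -0.01 (SE 0.11, edgeR adjusted p = 0.956) turned to 0.01 without control replicate 1 and to 0.10 without VNLG-152R replicate 1. EIF4A3, whose product belongs to the exon junction complex, had 190, 179 and 183 CPM in controls and 166, 160 and 155 CPM with VNLG-152R. These groups did not overlap (log2 fold change -0.20, SE 0.08, edgeR adjusted p = 0.162). EIF4B, a stimulator of eIF4A, was the one gene with each treated library above each control, from 440 to 461 CPM in controls and 472 to 493 CPM with VNLG-152R. Its log2 fold change was 0.09 (SE 0.08, edgeR adjusted p = 0.545), and that of EIF4H, another cofactor, was -0.02.

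**Figure D2:**
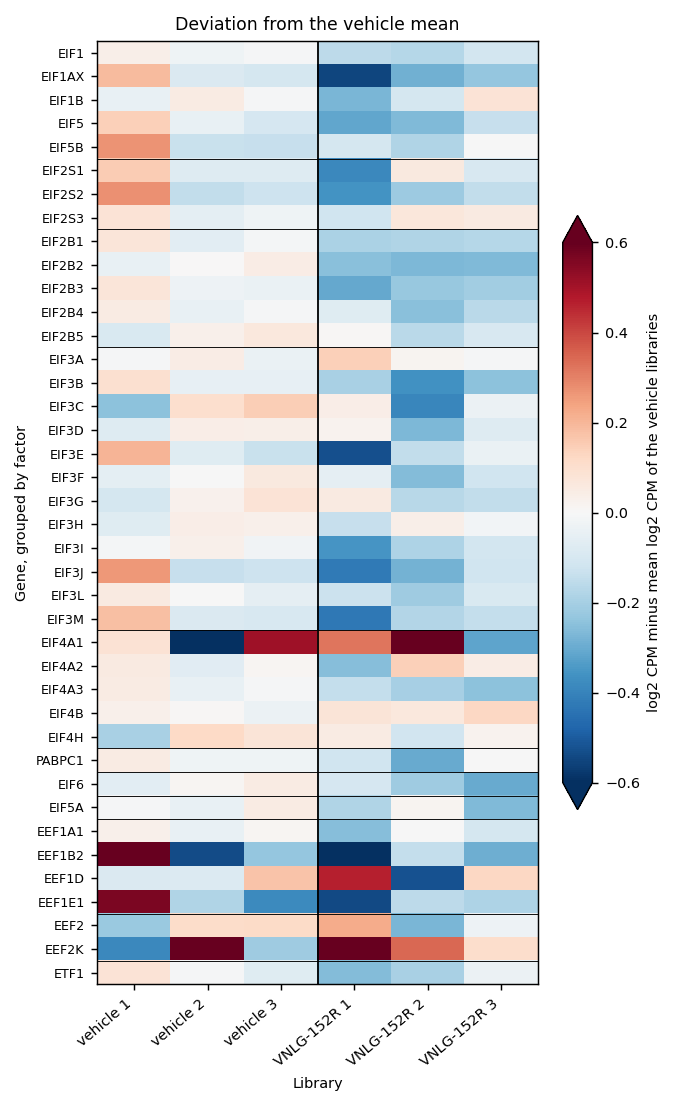
Color gives log2 CPM of each tested gene (rows, grouped by factor) in each library (columns) minus the mean log2 CPM of the 3 vehicle libraries; blue is lower and red is higher. Most rows are blue in the 3 VNLG-152R columns, the 5 genes with few counts vary most, and vehicle replicate 1 has the highest value of the row in 21 of 40 genes.

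PABPC1, which binds the poly(A) tail and links it to the cap complex, had 1446, 1373 and 1374 CPM in controls and 1287, 1132 and 1396 CPM with VNLG-152R. VNLG-152R replicate 3 was above 2 of the controls (log2 fold change -0.14, SE 0.10, edgeR adjusted p = 0.428). EIF6, which keeps the large subunit from joining too early, had 143, 151 and 155 CPM in controls and 140, 129 and 122 CPM with VNLG-152R. Those groups were apart by a narrow margin (log2 fold change -0.20, SE 0.08, edgeR adjusted p = 0.169), and AL121753.1, a gene of the same orientation, overlaps 17.4% of its exons. EIF5A, the hypusine-bearing factor that relieves stalled ribosomes, had 930, 904 and 966 CPM in controls and 823, 943 and 776 CPM with VNLG-152R. Its groups overlapped (log2 fold change -0.14, edgeR adjusted p = 0.406).

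For elongation, EEF1A1, the gene of the tRNA carrier, had 8519, 8084 and 8396 CPM in controls and 6979, 8315 and 7741 CPM with VNLG-152R. VNLG-152R replicate 2 lay among the controls, and the log2 fold change was -0.12 (SE 0.10, edgeR adjusted p = 0.496). EEF2, the gene of the translocase, had 1648, 2077 and 2081 CPM in controls and 2248, 1589 and 1884 CPM with VNLG-152R. The highest and the lowest level both occurred in treated libraries. Its log2 fold change of -0.02 (SE 0.13, edgeR adjusted p = 0.941) became 0.10 when VNLG-152R replicate 2 was removed, 0.03 when control replicate 2 or 3 was removed and -0.15 at its lowest. EEF2K, the kinase that switches eEF2 off, had very few reads: 23, 45 and 29 counts in the vehicle libraries and 65, 48 and 44 in the treated ones. Its log2 fold change was 0.44 (SE 0.32, edgeR adjusted p = 0.431), and 0.17 at its lowest when 1 library was left out. ETF1, the gene of the release factor eRF1, had 283, 266 and 254 CPM in controls and 224, 234 and 261 CPM with VNLG-152R. VNLG-152R replicate 3 was above control replicate 3 (log2 fold change -0.16, edgeR adjusted p = 0.307).

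**Figure D3:**
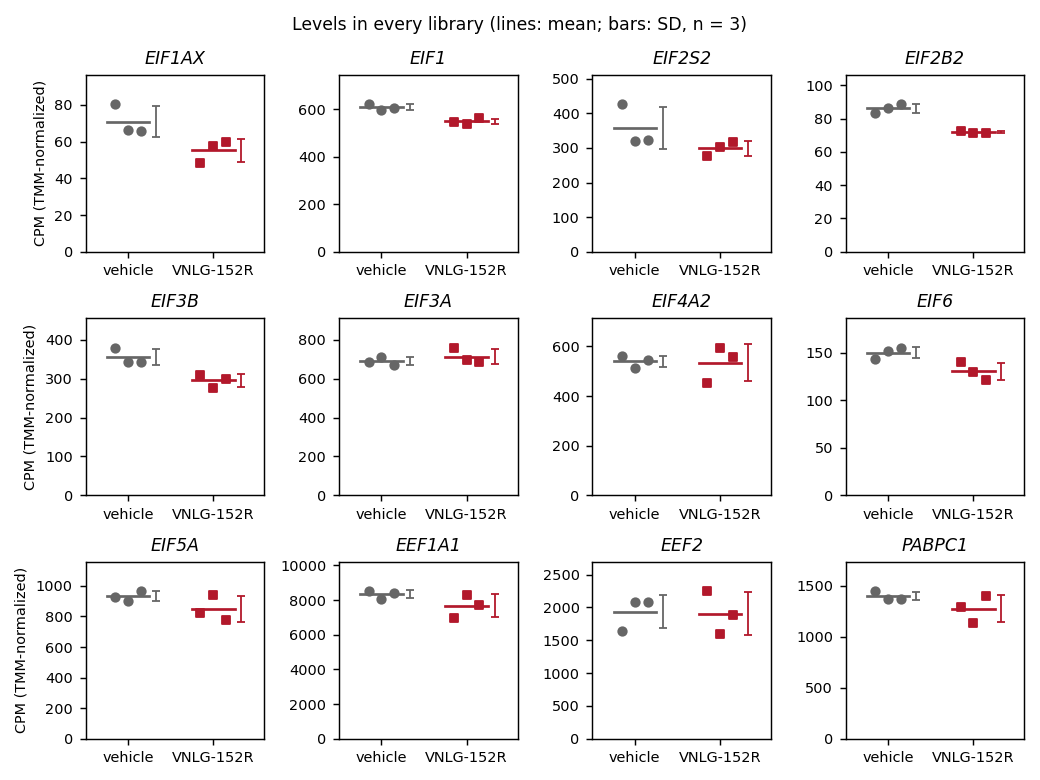
TMM-normalized CPM on linear axes from 0 for 12 of the genes; grey circles are the 3 vehicle libraries, red squares the 3 VNLG-152R libraries, lines the means and bars the SD (n = 3). EIF1AX, EIF1, EIF2B2, EIF3B and EIF6 have separate groups, while EEF2 spans 1589 to 2248 CPM within the treated group alone. The groups of EIF2S2 almost touch, with 319.0 CPM in the lowest control and 318.7 CPM in the highest treated library.

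The lowest and highest levels were unevenly spread over the libraries. Over the 40 genes, the lowest of the 6 levels was in VNLG-152R replicate 1 for 18 genes, in replicate 2 for 14 and in replicate 3 for 3, and in a control library for the other 5. The highest level was in control replicate 1 for 21 genes. Measured against the mean of the controls, the median log2 deviation over the group was 0.05, -0.04 and -0.02 in controls 1 to 3. It was -0.15, -0.18 and -0.11 in the treated libraries, in replicate order. Every treated library was thus below every control by this measure.

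Genes with and without the pyrimidine start were set side by side. The 9 tested genes with it had a median log2 fold change of -0.10 with 7 below 0, and the 23 tested genes of the same table without such a run had a median of -0.16 with 21 below 0; the difference was not tested. Neither group held a gene that passed the test. A list of 13 members known as TOP genes, of which 12 were tested, had a median of -0.13, and the tested genes outside it had a median of -0.15.

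Counts of some factors were split with copies elsewhere in the genome, and a few were nearly absent from the tables. EEF1G, the gene of eEF1γ on chromosome 11 from 62559601 to 62574086, had 0 counts in all 6 libraries. For reads assigned to this gene alone, that allows up to 0.0363 to 0.0498 CPM per library (3 counts each, counting error only). Another annotated gene, AP002990.1, covers 99.9% of its exons on the same strand and had 7 to 19 counts. Read pairs that fit more than 1 gene were set aside as ambiguous (4.81% to 5.16% of pairs per library), so the 0 does not bound EEF1G RNA. EIF3K, an eIF3 subunit, had 2, 3 and 1 counts in the vehicle libraries and 1, 0 and 0 in the treated ones, with no overlapping gene in GENCODE 29. Neither gene can be compared between the groups, and the reason for the missing counts was not tested. Among the other genes with few counts, EEF1D and EEF1E1 had log2 fold changes of 0.07 and -0.34 (edgeR adjusted p = 0.858 and 0.358). EEF1E1 was at -0.0017 without control replicate 1, and EEF1D turned to -0.16 when VNLG-152R replicate 1 was removed and went to 0.30 when replicate 2 of that group was. EEF1E1 is named after eEF1 but is better known as a scaffold protein of the aminoacyl-tRNA synthetase complex.

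EIF4A1, the main cytoplasmic helicase, had 177, 109 and 265 counts in the vehicle libraries and 231, 354 and 182 in the treated ones, while 8 of its pseudogenes together held 1366 to 1960 counts in each library. Genes on the same strand, SENP3-EIF4A1 among them, cover 48.6% of its exons. Its log2 fold change was 0.24 (SE 0.28, edgeR adjusted p = 0.641) from its own counts and -0.22 (adjusted p = 0.175) when pseudogene counts were added, so the data give no direction for EIF4A1. EEF1B2, an exchange factor for eEF1A, had 13.5, 5.48 and 6.75 CPM in controls and 4.66, 7.19 and 6.49 CPM with VNLG-152R. Control replicate 1 stood above the other 5 libraries, and the log2 fold change of -0.49 (SE 0.27, edgeR adjusted p = 0.314) shrank to -0.0006 without it. Pseudogenes held 63.6% to 70.4% of the combined EEF1B2 counts. EIF3C shared its counts with the near-identical EIF3CL, which took 46.7% to 55.4% of their sum, and the log2 fold change of -0.13 became -0.06 for the sum. For EEF1A1, 26 copies held 6.63% to 9.85% of the counts, and the value of -0.12 became -0.10 when they were added. Read pairs without a unique alignment were set aside (7.81% to 8.12% of pairs per library). The sums of a gene and its copies therefore hold only uniquely placed pairs and are not the total RNA of these genes.

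**Figure D4:**
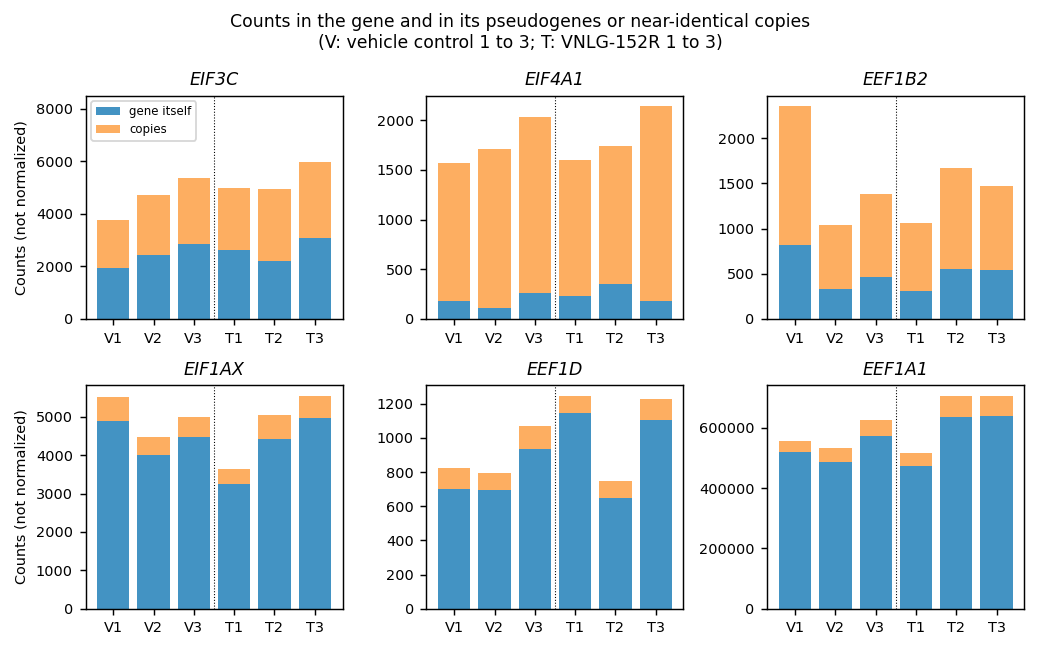
Counts (not normalized) per library in the gene itself (blue) and in its pseudogenes or near-identical copies (orange), stacked, for 6 genes; V marks vehicle and T VNLG-152R replicates. Copies hold most counts of EIF4A1 and EEF1B2, about the same as the gene for EIF3C, and a small part for EIF1AX, EEF1D and EEF1A1.

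Of 62 other genes of translation, 60 were tested, 2 rose and 0 fell (3.76% and 1.43% of all genes tested did), 33 had log2 fold changes below 0 and the median was -0.03. DESeq2 also called PAIP2B and PABPC1L higher and the modification enzymes DOHH and DPH2 lower, and limma-voom called the same 2 genes as edgeR. One that rose was PPP1R15A, the subunit that directs a phosphatase to eIF2α and so reverses the stress signal. It had 167, 185 and 167 CPM in controls and 243, 205 and 214 CPM with VNLG-152R, and the groups were apart. The log2 fold change was 0.35 (SE 0.09, edgeR adjusted p = 0.0445). PPP1R15A still passed without VNLG-152R replicate 2 (adjusted p = 0.037) and did not pass without any one of the other 5 libraries (up to 0.192, without control replicate 3). The other that rose was PDCD4, which blocks eIF4A, with 40.1, 42.4 and 36.4 CPM in controls and 48.0, 54.3 and 51.1 CPM with VNLG-152R. Its groups were apart (log2 fold change 0.37, edgeR adjusted p = 0.0365). It passed without VNLG-152R replicate 1 (adjusted p = 0.0212) and not without any other library. The 6 kinases and phosphatase subunits acting on eIF2 had log2 fold changes from 0.0025 to 0.35, and in 3 of them each treated library was above each control, against 15.1% of all genes tested. The list was not tested as a set. EIF2AK3, the gene of the stress kinase PERK, had a log2 fold change of 0.24 (edgeR adjusted p = 0.134), and EIF2AK4, the gene of GCN2, of 0.0025. None of the tested relatives of the group's members passed edgeR. PABPC1L, which DESeq2 called higher, had the largest change (log2 fold change 0.42, edgeR adjusted p = 0.084), and its groups overlapped. EEF1A2, a second eEF1A gene, had a log2 fold change of -0.27 (edgeR adjusted p = 0.192), EIF3CL of 0.02 and EIF5A2 of 0.01.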

How the data were processed

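Polyadenylated RNA of 3 vehicle control and 3 VNLG-152R samples was sequenced from stranded libraries with paired ends. Tables of raw counts for each Ensembl gene were deposited. The processing notes name HISAT, HTSeq, DESeq and GRCh38; the sources used here give no versions, annotation release or strand setting. HTSeq classes of pairs not assigned to a gene were left out of the totals. Gene symbols came from a supplied table, coordinates and overlaps from GENCODE 29 (GRCh38), and start windows from RefSeq (GRCh38.p14).

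Counts were compared in R 4.3.3 with edgeR 4.0.16 (TMM, filterByExpr, quasi-likelihood test, Benjamini-Hochberg over 17084 genes, 4 residual degrees of freedom), which was tested on simulated data. The standard error is the absolute log2 fold change over the square root of F, and 95% intervals use the t quantile at the moderated degrees of freedom. Alternatives were DESeq2 1.42.0, limma-voom (limma 3.58.1), other scalings and filters, a transcript length correction, a replicate block, summed copies and leaving out each library. Depth was 60122936 to 82151816 counts.

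Members and lists were chosen with earlier results of these data known. Values in every library are given for the gene with the smallest p and the gene with the highest CPM in each factor. EIF4B, EIF4A1, and the pyrimidine-start rule were chosen after values were seen. No list was tested as a set.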

Additional observations from a re-analysis of the deposited data

Results flagged for a closer look

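The share of read pairs in the no-feature class, which no gene test of the report uses, was 3.36% or more in each VNLG-152R library. It was at most 3.17% in the vehicle controls. The highest share, 5.05%, was in VNLG-152R replicate 2, which also had the lowest median over the translation factors (-0.18 against the mean of the controls). Among the treated libraries the median was lower where the share was higher. Among the controls the order was the reverse, with a median of 0.05 at 3.17% in replicate 1 and of -0.04 at 2.63% in replicate 2. The part of this share in the values of these genes was not tested.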

How the results depend on the processing

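The count of translation factors called was 0 in edgeR and under 13 of 16 alternatives, while no expression filter gave 2, DESeq2 gave 4 and an adjusted p under 0.1 gave 4. Other translation genes changed numbered 2 in edgeR, 5 with no filter, 6 with DESeq2, 5 at an adjusted p under 0.1, 0 with the replicate block and 0 to 2 without single libraries. All genes changed numbered 887 in edgeR, 1539 with no filter, 1501 with DESeq2, 1729 at an adjusted p under 0.1, 397 with the replicate block and 264 to 948 without single libraries (426 and 264 for control replicates 1 and 3, 531 and 470 for treated replicates 2 and 3). The group median of -0.14 stayed between -0.16 and -0.12 in the 15 alternatives that gave it (it was not computed with copies summed), and was -0.13 after the length correction. The length correction turned EIF3A to -0.036, EIF4A2 to 0.041 and EIF5A2 to -0.045. Leaving out single libraries gave EIF4A2 from -0.10 to 0.10, EEF2 from -0.15 to 0.10, EIF3CL from -0.082 to 0.075 and EIF5A2 from -0.073 to 0.16. Of 346 values of named genes under alternatives, 312 had the same sign and call. Causes were not tested. The labels do not say whether equal replicate numbers pair the samples. Deviations of same-numbered libraries from their group means correlated at -0.383, -0.255 and -0.237, and no library correlated best with its own number. These correlations cannot settle pairing, because the deviations within each group sum to 0. With the replicate block EIF5A2 was at -0.0002 and 0 translation factors were called. Low counts limit EEF2K, EEF1G and EIF3K could not be compared, and overlapping or copied genes limit genes such as EIF4A1, EIF3L, EEF1B2 and EIF3C.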

Other observations

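Enzymes that modify elongation factors had mostly negative log2 fold changes, and whether any passed depended on the tool. Of 14 genes that act on eIF5A, eEF1A or eEF2, 12 had log2 fold changes below 0, 5 had treated libraries entirely below the controls (13.4% of all genes tested did), and 0 passed edgeR, with 6 at an unadjusted p under 0.05 (22.6% of all genes tested were). Of these, 5 were lower (9.76% of all genes tested) and DHPS was higher. DESeq2 called 2 of the 14 lower, DOHH and DPH2, and limma-voom called 0. DPH2 and DPH3, which take part in making diphthamide on eEF2, were at 44.9 ± 2.41 and 36.3 ± 1.54 CPM in controls and 36.8 ± 1.92 and 30.2 ± 4.36 CPM with VNLG-152R (SD, n = 3 each). Their log2 fold changes were -0.29 and -0.26 (adjusted p = 0.0702 and 0.162 from edgeR). DOHH, which completes hypusine on eIF5A, had a log2 fold change of -0.32 and EEF2KMT, a methyltransferase of eEF2, of -0.30 (adjusted p = 0.101 and 0.139). DHPS, the first hypusine enzyme, had a log2 fold change of 0.58 at 1.24 and 1.86 CPM (adjusted p = 0.151), and 38.5% of its exons are shared with a gene on its strand.

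Of 10 mitochondrial translation factors, 6 were below 0, the median was -0.08, and edgeR, DESeq2 and limma-voom each called 0, with 0 also at an unadjusted p under 0.05 in edgeR. TUFM, the mitochondrial relative of eEF1A, was at 328 ± 2.13 CPM in controls and 303 ± 34.7 CPM with VNLG-152R (SD, n = 3 each; adjusted p = 0.51 from edgeR). These genes were chosen for mention after their values were seen.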
